A study of Danio rerio with 4 samples.

Results

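The proteasome subunit genes described here are the genes whose symbol starts with PSM, a letter from A to G and a digit. The rule found 58 of the 31953 gene rows in each count table. A further match in the symbol table, PSMB11, has no row and was not analysed here. Of the 58 genes, 56 encode components of the proteasome, its activators, its inhibitor or its assembly chaperones. The other 2 encode proteins that only carry a proteasome subunit in their name: PSMC3IP, a meiotic recombination factor, and PSME3IP1, which binds the activator subunit PSME3. The symbols come from a gene table that writes many zebrafish genes in human style, and roles below are those known for the human or yeast proteins. At least 1 read was counted for 54 of the 58 genes, and 4 genes had 0 counts in every library.

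The proteasome degrades proteins that carry ubiquitin chains. Its 20S core is a barrel of α and β rings, with the proteolytic sites on β subunits facing the inner chamber. The 19S particle caps the barrel: ATPases of its base unfold the substrate, while ubiquitin receptors and a deubiquitinase in base and lid bind the substrate and remove its ubiquitin. PSME activators can dock on the core in place of the 19S cap, and dedicated chaperones assemble core and base.

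Whole zebrafish embryos were sampled 24 h after fertilisation, with 1 library in each of 4 groups. RNA-seq was made from wild-type embryos and from ddx39a mutants, in which a gene for a DEAD-box RNA helicase of mRNA processing and export is affected. RIP-seq, in which RNA bound to a protein is recovered with that protein, was deposited under a wild-type and a ddx39a mutant label. For both RIP-seq labels the protocol describes the same procedure: mRNA for Flag-tagged ddx39a was injected into ddx39a mutants at the one-cell stage, and RNA was recovered from the lysates on anti-Flag beads. The genotype label and the protocol therefore differ for the library labelled wild type, and neither RIP-seq library is treated here as a mock or a control. The mutant allele, the number of embryos per library and whether mutants were sorted by appearance were not stated. With 1 library per group no spread between replicates can be estimated. Every interval below is a 95% exact conditional binomial (Clopper-Pearson) interval that covers counting error only, so each comparison is between 2 libraries and not between conditions.

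Reads counted in genes amounted to 9922182 in wild-type RNA-seq, 9533101 in mutant RNA-seq, 1966053 in wild-type-labelled RIP-seq and 2246938 in mutant-labelled RIP-seq. In RIP-seq the 5 leading genes held 75.5% and 69.5% of these counts, against 4.15% and 4.08% in RNA-seq. DDX39A (ENSDARG00000015111) had 3742 counts in wild-type and 706 in mutant RNA-seq, 5.31-fold lower (4.90 to 5.76), and a second gene of that symbol (ENSDARG00000006225) had 2242 and 2382. Fast muscle markers were called lower in mutant RNA-seq for 4 of 6 genes and lens markers for 5 of 5. None of 4 epidermal, 5 notochord or 3 measured neuronal markers was called in either direction, but 4 of the 5 notochord markers had an interval below 1. Erythroid markers were called lower for 2 of 5, with 4 of 5 intervals below 1. These counts are of gene IDs, and IDs that share a symbol (TNNT3, CRYBA2, MIP and SLC4A1) are counted separately. The markers mylpfa, crygn2, hbbe1.1 and ntla matched no symbol. In whole embryos, fewer cells of a type and less RNA per cell cannot be told apart.

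The 56 components together had 53541 counts in wild-type and 53596 in mutant RNA-seq. These were 0.540% (0.535 to 0.544) and 0.562% (0.557 to 0.567) of gene counts. In RIP-seq they had 2996 and 3054 counts under the wild-type and mutant label, or 0.152% (0.147 to 0.158) and 0.136% (0.131 to 0.141). The 5 leading genes of each library make 11 genes in all. Of the counts outside these leading genes, components held 0.566%, 0.589%, 0.652% and 0.463% in the same order. The RIP-seq share then lay above RNA-seq under the wild-type label. It stayed below under the mutant label, with intervals of 0.446 to 0.479 against 0.584 to 0.594. The part of the leading genes in the lower RIP-seq share was not tested. The median component had 1056.5, 1013, 45 and 50.5 counts, so single-gene ratios in RIP-seq are far less precise than in RNA-seq.

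Within each sub-complex the counts show which genes the libraries cover well. They are given without correction for gene length, so they order coverage, not expression. In the α ring, which gates entry to the barrel, PSMA8 had 2181 counts in wild-type RNA-seq, 2306 in mutant RNA-seq, 103 in wild-type-labelled RIP-seq and 87 in mutant-labelled RIP-seq. The symbol table has no PSMA7, and a RefSeq gene table of the assembly GRCz12tu lists psma7 as a synonym of psma8. At the other end psma6l, a further PSMA6-like gene, had 5, 5, 0 and 0 counts in the same order of libraries. In the constitutive β ring the highest mean level of the RNA-seq libraries belonged to PSMB7, with 2113, 2191, 95 and 90 counts, and the lowest to PSMB5, with 1172, 810, 85 and 78. PSMB7 and PSMB5 carry the trypsin-like and the chymotrypsin-like site.

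Among the base ATPases PSMC3 had 2122, 2042, 172 and 178 counts and psmc1b, a second gene for subunit PSMC1, had 950, 866, 63 and 74. PSMD1, the large scaffold protein of the base, was the best covered member in every library with 2743, 2594, 194 and 228 counts. PSMD2, the other large base scaffold, is represented by 2 gene IDs (ENSDARG00000099653 and ENSDARG00000103190), both at 0 in all 4 libraries. PSMD4, a ubiquitin receptor, had 508, 464, 38 and 31 counts. In the lid PSMD3, a scaffold subunit, had 1710, 1601, 99 and 66 counts, and the lower covered of the PSMD11 genes (ENSDARG00000060150) had 784, 796, 30 and 41.

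The activators were unequally covered. PSME3, a nuclear activator, had 1086, 1252, 31 and 22 counts. PSME4, the large single-chain activator also called PA200, had 1048, 943, 59 and 134 at ENSDARG00000018742, while its second gene (ENSDARG00000087911) had 17, 22, 4 and 8. PSME1 and PSME2 form a mixed ring that is inducible in mammals: PSME2 had 373, 422, 2 and 4 counts, and PSME1 only 4, 4, 3 and 2. The inhibitor PSMF1 had 96, 95, 0 and 3. Among the assembly chaperones PSMD5 had 278, 267, 30 and 13 counts and PSMG3 132, 74, 5 and 4.

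The genes grouped as inducible and thymic β subunits were near 0. Of these, PSMB8, PSMB9 and PSMB10 replace constitutive subunits in mammalian immune cells. PSMB8 had 1, 0, 0 and 0 counts, PSMB9 had 9, 6, 0 and 0, and psmb12 had 4, 5, 0 and 0. The genes psmb11b and psmb13a had 0 counts in every library, where 3 counts, the limit that a count of 0 allows, equal 0.302 CPM (wild type) and 0.315 CPM (mutant) for RNA-seq and 1.53 CPM (wild-type label) and 1.34 CPM (mutant label) for RIP-seq. PSMB10, the replacement of PSMB7, was the exception with 78, 104, 7 and 4. Leukocyte markers were present in the same RNA: 5 genes of the marker list (mpx and mpeg1.1 matched no symbol) had a summed level of 69.3 CPM in wild-type and 55.9 CPM in mutant RNA-seq, and lyz, a lysozyme of myeloid cells, had 279 and 148 counts. The part of leukocyte number in the levels of these subunits was not tested.

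The first comparison asks how the steady-state mRNA of the proteasome differs between ddx39a mutant and wild-type embryos. Ratios are of counts scaled by TMM, a method that sets the bulk of genes to equality, and a gene is called when it differs at least 2-fold with an interval that leaves out 1. Of the 58 genes 49 reached a CPM of 1 in at least 1 library, and 0 were called higher or lower, against 2.16% of 18800 genes called higher and 2.6% called lower. No test across replicates stands behind this count. The fast muscle markers, summed, had 66334 counts in wild-type and 35499 in mutant RNA-seq, and the part of such tissue differences in the proteasome ratios was not tested. The summed component counts gave a ratio of 1.00 (0.988 to 1.01), and the median log2 ratio of the 49 genes was 0.00, against -0.00 over all genes. Of the 49 ratios 45 lay between 0.8 and 1.25 and 37 between 0.9 and 1.1. The shares of all genes in these ranges were not computed, so the counts only describe the members. The log2 quartiles were -0.084 and 0.088 for the members and -0.226 and 0.208 for all 18800 genes. For the 13296 better covered of these they were -0.171 and 0.168.

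**Figure D1:**
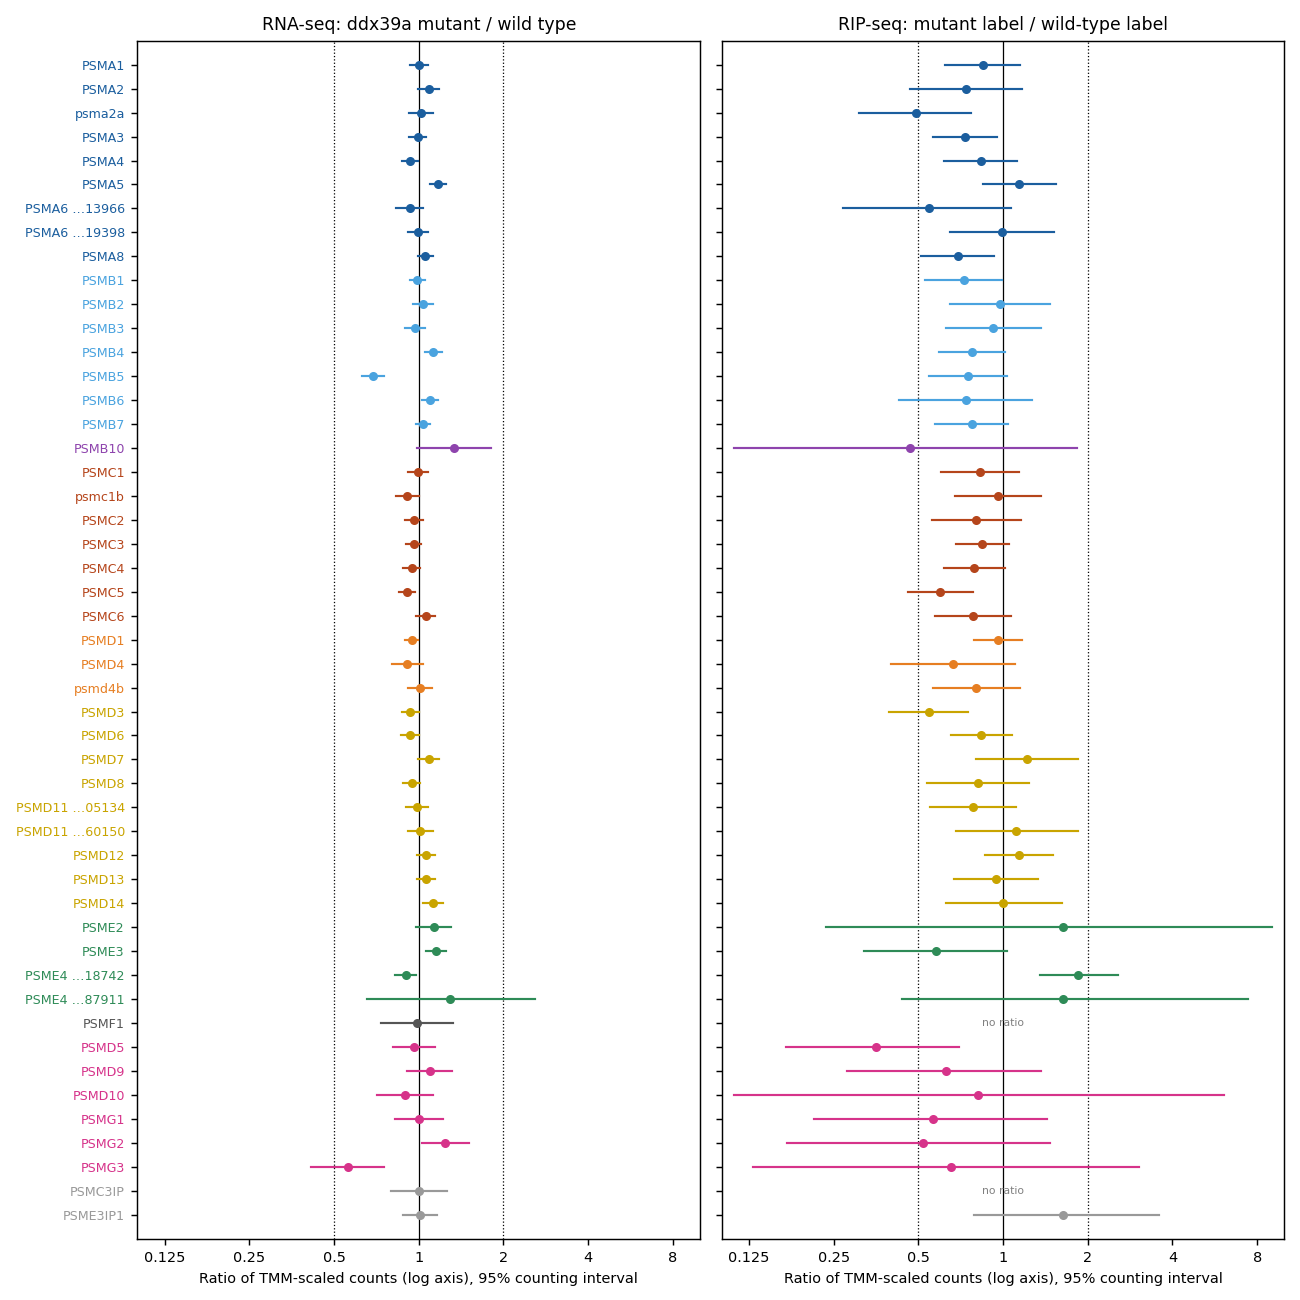
Ratio of the ddx39a mutant to the wild-type library (log axis) for each measured gene, in RNA-seq and in RIP-seq by label; bars are 95% counting intervals, cut at the axis limits. In RNA-seq 45 of 49 ratios lie between 0.8 and 1.25, a range not counted over all genes. PSMB5 and PSMG3 lie below it and PSMB10 and the sparse PSME4 gene above. RIP-seq ratios spread wider and lie mostly below 1, and the well-covered PSME4 gene at 1.85 has the only interval above 1.

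A less demanding count asks only whether the interval leaves out 1. By it 6 genes were higher and 8 lower in the mutant library, or 6 and 8 of 49 against 13.6% and 15.2% of all genes, so the members' share is near the background. Intervals narrow with coverage, and the shares over all genes, here and below, are not matched for the coverage of the members. The split depends on the scaling, since scaling by total counts gave 15 higher and 2 lower, against 19% and 11.4% of all genes. The 2 that stayed lower were PSMB5 and PSMG3. The 4 genes outside the range from 0.8 to 1.25 were PSMB5, PSMG3, PSMB10 and the sparsely covered PSME4 gene.

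PSMB5, the catalytic subunit targeted by proteasome inhibitors such as bortezomib, had 1172 counts in the wild-type and 810 in the mutant library, a ratio of 0.690 (0.630 to 0.755). The rest of the β ring did not follow it. PSMB6, with the caspase-like site, had 1657 and 1821 counts, a ratio of 1.1 (1.03 to 1.17). PSMB4, a β subunit with no active site, had 1555 and 1753, a ratio of 1.13 (1.05 to 1.21). The summed β ring therefore stood at 1.01 (0.979 to 1.03), with PSMB5 the only member whose interval lay below 1.

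The α ring summed to 1.03 (1.00 to 1.05). Its member PSMA5 had the highest lower bound of all 49 genes, with 1703 counts in wild-type and 1991 in mutant RNA-seq and a ratio of 1.17 (1.09 to 1.25). PSMA4 lay on the other side with 1829 and 1704 counts and a ratio of 0.930 (0.870 to 0.994).

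The 7 ATPase genes of the base summed to 0.961 (0.935 to 0.987). Within them PSMC5, an ATPase of the unfolding ring, had 1819 and 1653 counts, a ratio of 0.907 (0.848 to 0.970). PSMD1 had a ratio of 0.944 (0.895 to 0.997). The lid summed to 1.01 (0.982 to 1.03), with PSMD14, its deubiquitinase, at 1121 and 1260 counts and 1.12 (1.03 to 1.22). The whole 19S particle stood at 0.980 (0.964 to 0.997), which turned to 1.02 when libraries were scaled by total counts, so its direction is set by the scaling.

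Among activators PSME3 had 1086 and 1252 counts, a ratio of 1.15 (1.06 to 1.25), and the well-covered PSME4 gene had 1048 and 943, a ratio of 0.898 (0.822 to 0.982). The inhibitor PSMF1 had 96 and 95 counts. Chaperones that build the core went apart: PSMG3 had 132 counts in wild-type and 74 in mutant RNA-seq, a ratio of 0.560 (0.415 to 0.750), while PSMG2 had 192 and 239, a ratio of 1.24 (1.02 to 1.51). PSMG1, the partner of PSMG2 in a dimer, had 214 and 215. All 6 chaperones together summed to 0.985 (0.909 to 1.07). The inducible PSMB10 had a ratio of 1.33 (0.983 to 1.81), an interval that includes 1.

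The second comparison sets the RIP-seq libraries of the mutant and the wild-type label side by side. Of the 58 genes 50 were measured. None was called higher, against 8.37% of 15762 genes, and 2 were called lower, against 5.3%. Both calls rest on few counts, though psma2a lay above the component median of 45 under the wild-type label. This second gene for an α subunit had 55 counts there and 33 under the mutant label, a ratio of 0.490 (0.308 to 0.767). PSMD5, a chaperone of base assembly, had 30 and 13, a ratio of 0.354 (0.169 to 0.699).

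Most proteasome transcripts were somewhat lower under the mutant label on this scaling. The ratio was below 1 for 39 of 50 genes, the median log2 ratio was -0.32, and the median over all 15762 genes was -0.06 with quartiles of -0.74 and 0.69. The summed components stood at 0.832 (0.791 to 0.875). Other scalings kept the direction, at 0.892 by total counts and 0.709 by counts outside the leading genes. The interval lay above 1 for 1 gene and below 1 for 7, against 11.2% and 8.93% of all genes. Scaling by counts outside the leading genes gave 1 above and 25 below, against 6.99% and 12% of all genes. With TMM the 7 lower genes were psma2a, PSMA3, PSMA8, PSMB1, PSMC5, PSMD3 and PSMD5.

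By sub-complex the core summed to 0.793 (0.730 to 0.861) and the 19S particle to 0.841 (0.785 to 0.9). PSMD3 in the lid had 99 counts under the wild-type label and 66 under the mutant label, a ratio of 0.544 (0.392 to 0.750), and PSMC5 in the base had 139 and 102, a ratio of 0.599 (0.459 to 0.779). In RNA-seq the ratios of both genes were nearer 1, at 0.935 (0.873 to 1.001) for PSMD3, an interval that includes 1, and 0.907 (0.848 to 0.970) for PSMC5. PSMB5, the lowest β subunit in the RNA-seq comparison, had 85 and 78 counts in RIP-seq and a ratio of 0.749 (0.544 to 1.03), close to the summed β ring at 0.792 (0.699 to 0.898). The 6 chaperones summed to 79 and 49 counts, a ratio of 0.506 (0.347 to 0.732), but PSMD5 was the only chaperone whose own interval lay below 1.

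The highest lower bounds belonged to 3 genes. The well-covered PSME4 gene had 59 counts under the wild-type label and 134 under the mutant label, a ratio of 1.85 (1.35 to 2.56), the only member with an interval above 1. PSMD12, a lid subunit, had 91 and 127, a ratio of 1.14 (0.863 to 1.51), and PSMA5 had 78 and 109, a ratio of 1.14 (0.845 to 1.55). A ratio taken against the other 55 components needs no library scaling. On that scale PSME4 stood at 2.28 (1.67 to 3.16), PSMD12 at 1.39 (1.05 to 1.83) and PSMA5 at 1.38 (1.03 to 1.88). These were the 3 of 48 components with a relative interval above 1, and 4 had one below 1. Shares over all genes were not computed on this scale. The 5 activators summed to 1.40 (1.09 to 1.81), and PSME4 supplied most of their counts, with PSME3 at 31 and 22. In RNA-seq the PSME4 gene stood on the other side of 1, at 0.898, and the difference of its 2 ratios was not tested.

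The third comparison relates RIP-seq to RNA-seq under each label and asks which proteasome transcripts are over- or under-represented among the recovered RNA. The answer for the family as a whole depends on the scaling. With TMM the median log2 ratio was 0.05 under the wild-type label and -0.34 under the mutant label, against -0.13 and -0.14 over all genes. With total counts the medians became -1.79 and -2.14, and the interval lay below 1 for 48 of 50 measured genes under the wild-type label and 48 of 49 under the mutant label, against 74.4% and 74.2% of all genes. That scaling shifts all genes by -1.83 and -1.79. Because the leading RIP-seq genes fill those libraries, members are compared below mainly with each other.

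On the TMM scale 2 genes were called higher and 5 lower under the wild-type label, against 9.01% and 14.1% of 17412 genes. Under the mutant label 2 were called higher and 8 lower, against 13.8% and 16.2% of 17711 genes. Neither share exceeds the background. By intervals alone 13 of 50 genes were higher and 16 lower under the wild-type label, against 15% and 18.4% of all genes, and 6 and 21 under the mutant label, against 19.3% and 21.4%. Upper-quartile scaling turned these splits to 19 higher and 7 lower under the wild-type label, against 17.7% and 14.1% of all genes. Under the mutant label it gave 9 and 15, against 22% and 18%. PSMB6 was called lower under both labels: 1657 counts in RNA-seq stood against 31 in RIP-seq, a ratio of 0.336 (0.228 to 0.479), and in the mutant pair 1821 stood against 28, a ratio of 0.226 (0.150 to 0.328). PSME2 was also called lower under both, with 373 against 2 counts and 422 against 4, ratios of 0.0964 (0.0116 to 0.351) and 0.139 (0.0378 to 0.360). So was PSMD10, a base chaperone, with 161 against 3 and 144 against 3. PSMC3IP, which is no component, had 155 against 0, 2.88-fold lower with the 0 set to the floor of 3 counts, and 156 against 4.

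The remaining calls came under a single label. PSMF1 had 96 counts in RNA-seq against 0 in wild-type-labelled RIP-seq, 1.78-fold lower with the 0 set to the floor of 3 counts. It was called because a count of 0 gives a ratio of 0, and at the floor it falls short of 2-fold. Its interval reached up to a ratio of 0.704, or 1.42-fold lower. In the mutant pair 95 stood against 3, a ratio of 0.465 (0.0942 to 1.40), an interval that includes 1. Under the mutant label PSME3 had 1252 against 22, a ratio of 0.259 (0.161 to 0.393), and the lid subunit PSMD8 had 1602 against 49, a ratio of 0.450 (0.332 to 0.598). PSMA6 (ENSDARG00000013966) had 633 against 16 and PSMG2 239 against 7, ratios of 0.372 (0.211 to 0.609) and 0.431 (0.171 to 0.902). No difference between the labels was tested for these genes.

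The higher calls rest mostly on few counts. The sparse PSME4 gene was called higher under both labels on 4 and 8 RIP-seq counts, at 4.23 (1.04 to 13.0) and 5.35 (2.06 to 12.5). The filter of 1 CPM uses TMM-scaled library sizes, and by total gene counts this gene had 1.71 CPM in wild-type RNA-seq. Under the wild-type label it passed that filter only through the RIP-seq library, where it was high, so that call supports nothing. PSME1 was called under the wild-type label on 3 counts, at 13.5 (1.97 to 79.7); it passed the filter of 1 CPM only through the RIP-seq library, where it was high, so this call supports nothing. The well-covered PSME4 gene stood at 1.01 (0.765 to 1.32) under the wild-type label and at 2.09 (1.73 to 2.51) under the mutant label, where total-count scaling turned its log2 ratio to -0.73. PSMD5 was not called, but its lower bound was among the 3 highest under the wild-type label. There 278 counts in RNA-seq stood against 30 in RIP-seq, a ratio of 1.94 (1.28 to 2.83). In the mutant pair 267 stood against 13, a ratio of 0.716 (0.377 to 1.25), an interval that includes 1.

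Compared with the other components, some subunits had an interval on the same side of 1 under both labels. The ratio of RIP-seq to RNA-seq share was above 1 for 13 and below 1 for 14 of 48 components under the wild-type label, by intervals, and for 11 and 12 under the mutant label. The 13 include PSME1 and the sparse PSME4 gene, which passed the filter only through RIP-seq. Under both labels 8 were higher and 8 lower, and 0 lay on opposite sides. Shares over all genes were not computed on this scale, so these counts have no background and only describe the components. Across the 36 components with at least 20 counts in both RIP-seq libraries the log2 ratios of the 2 labels had a Pearson correlation of 0.82 and a Spearman correlation of 0.80. These points share the gene's length, composition and uniquely alignable part in all 4 libraries, so the correlation is a description.

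**Figure D2:**
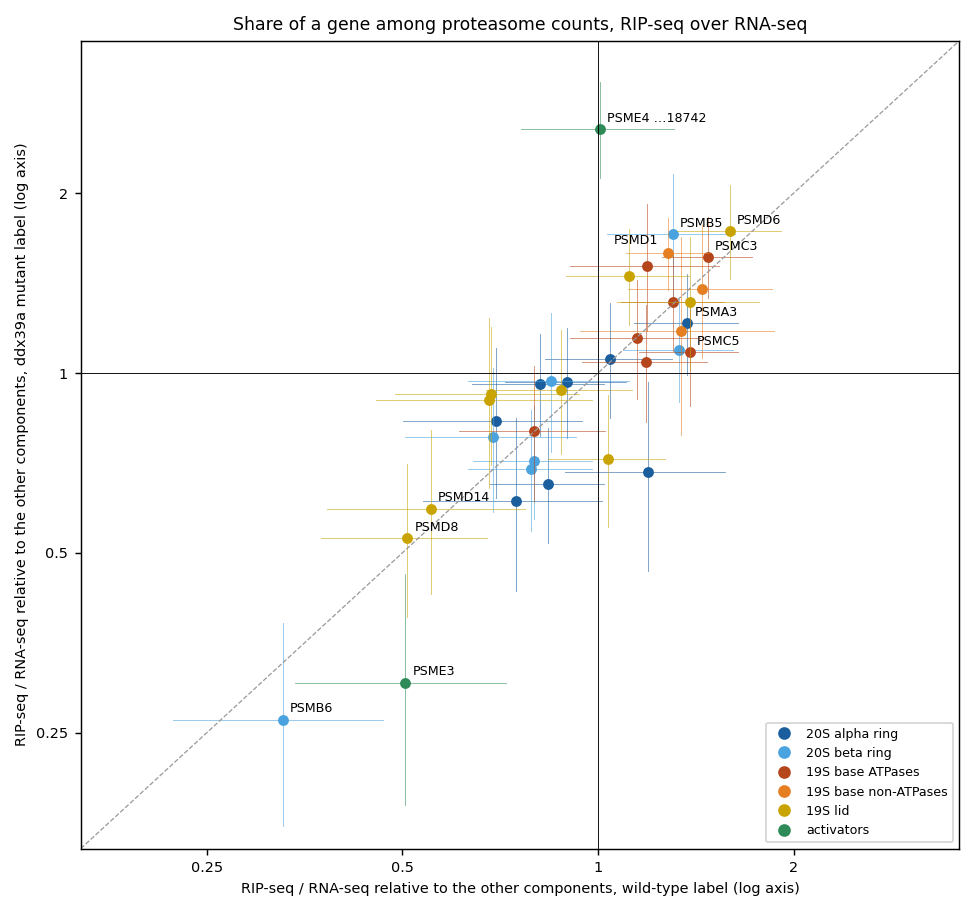
Ratio of RIP-seq to RNA-seq relative to the other components (log axes) under the wild-type label (x axis) and the mutant label (y axis). Shown are the 36 components with at least 20 counts in both RIP-seq libraries. Points rise along the diagonal, PSMB6 lies lowest on both axes and the PSME4 gene lies farthest above. With TMM scaling, which is not plotted, the ratio was lower under the mutant label for 29 of the 36.

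The 8 relatively higher genes came mostly from the 19S particle. They were the ATPases PSMC3 and PSMC4, the base scaffold PSMD1, the ubiquitin receptor gene psmd4b, the lid subunits PSMD6 and PSMD11 (ENSDARG00000005134), the core subunit PSMB5 and the sparse PSME4 gene. Under the wild-type label the sparse PSME4 gene was measured only through RIP-seq, where it was high, so its place here supports nothing. PSMD6 had 1480 and 1376 counts in RNA-seq and 130 and 133 in RIP-seq, relative ratios of 1.60 (1.32 to 1.91) under the wild-type and 1.73 (1.44 to 2.07) under the mutant label. PSMC3 stood at 1.48 (1.26 to 1.72) and 1.56 (1.33 to 1.82), and PSMD1 at 1.28 (1.1 to 1.48) and 1.59 (1.38 to 1.82). PSMB5 stood at 1.30 (1.03 to 1.63) and 1.71 (1.34 to 2.16); its RNA-seq count, the denominator, was lower in the mutant pair.

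The 8 relatively lower genes came from all particles. They were the α subunit PSMA6 (ENSDARG00000013966), the β subunits PSMB1, PSMB6 and PSMB7, the lid subunits PSMD8 and PSMD14 and the activators PSME2 and PSME3. PSMB6 was 3.05-fold (2.14 to 4.51) lower under the wild-type and 3.80-fold (2.62 to 5.74) lower under the mutant label. PSMD8 stood at 0.509 (0.375 to 0.675) and 0.529 (0.390 to 0.703). PSMD14 stood at 0.553 (0.383 to 0.773) and 0.593 (0.427 to 0.804), and PSME3 at 0.505 (0.341 to 0.721) and 0.303 (0.189 to 0.461). The catalytic β subunits thus lay on both sides, PSMB5 above the other components and PSMB6 and PSMB7 below.

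Summed by particle, the RIP-seq libraries held relatively more base and less core. The 20S core made up 43.5% and 44.2% of component counts in wild-type and mutant RNA-seq, and 38.9% and 37.03% in RIP-seq under the same labels. Its β ring held 20.2% and 20.3% against 17.2% and 16.3%, and much of that drop was PSMB6, at 3.09% and 3.40% against 1.03% and 0.917%. PSMB1, PSMB2, PSMB3 and PSMB7 also held less in RIP-seq under both labels, while PSMB4 and PSMB5 held more. The 19S particle made up 49.2% and 48.3% in RNA-seq and 54.97% and 55.6% in RIP-seq. Most of this gap sat in the base: its ATPases held 20.01% (19.7 to 20.3) and 19.2% (18.9 to 19.6) in RNA-seq against 24.6% (23.1 to 26.2) and 23.2% (21.7 to 24.8) in RIP-seq. Its non-ATPase subunits held 7.65% and 7.30% against 10.01% (8.96 to 11.1) and 10.7% (9.60 to 11.8). The non-ATPase sum rests on PSMD1, PSMD4 and psmd4b, and leaves out ADRM1, a ubiquitin receptor of the base that the symbol rule does not match. ADRM1 had 954 and 956 counts in RNA-seq against 46 and 51 in RIP-seq. With TMM its ratios were 0.866 (0.630 to 1.17) and 0.785 (0.580 to 1.04), so it did not share the rise. The lid genes of the symbol rule held 21.6%, 21.7%, 20.4% and 21.7%, with no such gap. This sum leaves out the lid subunit SEM1, which the symbol rule does not match. SEM1 had 1410 and 1332 counts in wild-type and mutant RNA-seq against 23 and 30 in RIP-seq under the same labels. The assay itself separates these pairs of libraries, and gene length was not available to compare with them, so the part of length in these shares was not tested.

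**Figure D3:**
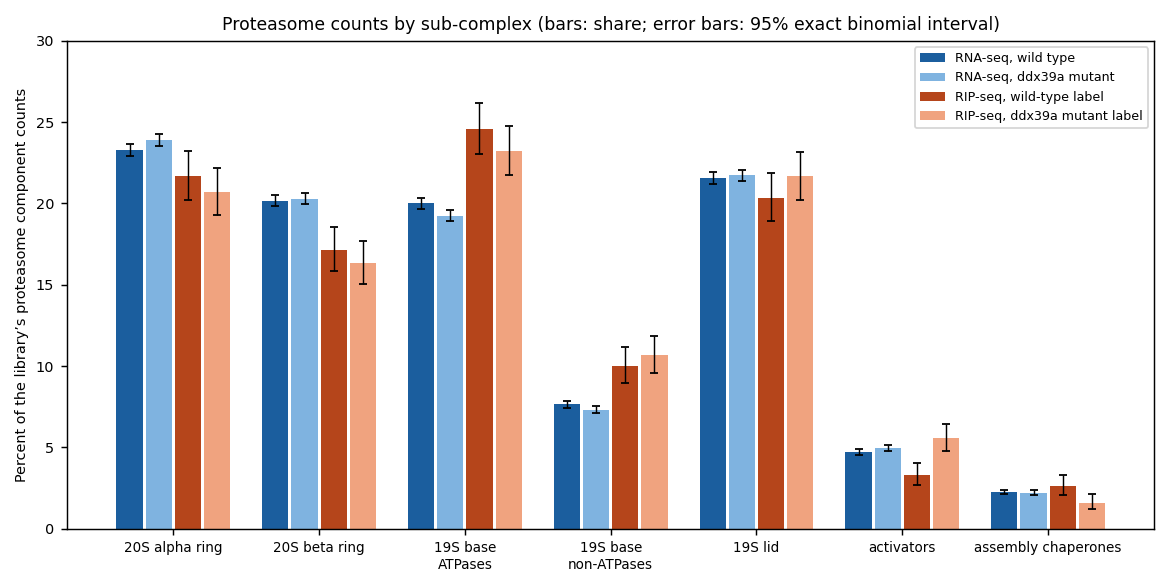
Percent of component counts held by each sub-complex in the 4 libraries, with 95% binomial counting intervals. The base ATPases and the base non-ATPases, summed without ADRM1, lie higher in both RIP-seq libraries than in both RNA-seq libraries and the β ring lies lower. The lid, summed without SEM1, lies near 21% in all.

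For 6 subunits the files hold a pair of gene copies, and the share of reads that went to each copy needs no library scaling. The PSMC1 gene held 57.1% and 59.3% of the PSMC1 and psmc1b counts in RNA-seq and 56.3% and 52.6% in RIP-seq. For psmd4b the share of the PSMD4 pair was 62.5%, 64.9%, 64.2% and 68.4%. PSMA2 held 55.2%, 56.9%, 43.9% and 54.2% of its pair with psma2a, PSMA6 (ENSDARG00000019398) 61.7%, 63.3%, 64.2% and 76.5%, and PSME4 (ENSDARG00000018742) 98.4%, 97.7%, 93.7% and 94.4%. The PSMD11 pair differed between assays under the wild-type label: ENSDARG00000005134 held 53.7% in RNA-seq and 70.0% (60.0 to 78.8) in RIP-seq, against 53.0% and 62.0% (52.2 to 71.2) under the mutant label. Only reads with a unique alignment were counted, so reads shared between similar copies are missing from these shares and the counts of copies are uncertain.

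Genes that work with the proteasome were read from 4 lists. Of 9 associated factors, 0 were called in the mutant RNA-seq comparison and 3 had an interval above 1 with TMM, against 13.6% of all genes. With total-count scaling the share of all genes rose to 19%, and these factors were not counted again. The 3 were POMP, the maturation factor of the core, with 890 and 986 counts and a ratio of 1.11 (1.01 to 1.21), the deubiquitinase UCHL5 with 742 and 863, and the proteasome adaptor ECPAS with 999 and 1107. The most covered associated factor SEM1, a small lid subunit outside the symbol rule, had 1410 and 1332. Of 6 transcriptional regulators of proteasome genes and their activators, 1 was called higher and 0 lower, against 2.16% and 2.6% of all genes. NFE2L1 (ENSDARG00000030616), whose human counterpart activates proteasome genes when proteasome activity is low, had 27 and 72 counts, a ratio of 2.66 (1.69 to 4.31). Its second gene nfe2l1b had 324 and 358 counts, a ratio of 1.1 (0.947 to 1.29), and the median log2 ratio of the list was 0.03.

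Of 7 genes for ubiquitin and its activating enzymes, 0 were called, against 2.16% of all genes called higher and 2.6% called lower. Among them ubc, a polyubiquitin gene, had 7769 and 6125 counts, a ratio of 0.787 (0.761 to 0.814). Of 11 shuttle and extraction factors, 0 were called, 2 had an interval above 1 and 4 below, against 13.6% and 15.2% of all genes. The segregase VCP and its cofactors UFD1 and NPLOC4 were among the 4, while other cofactors of VCP did not follow: NSFL1C had 1551 and 1676 counts, a ratio of 1.08 (1.01 to 1.16), and FAF2 426 and 425. VCP had 6154 and 5632 counts, a ratio of 0.914 (0.881 to 0.948), UFD1 had 408 and 263, a ratio of 0.644 (0.549 to 0.753), and NPLOC4 had 630 and 511, a ratio of 0.810 (0.719 to 0.912).

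Between the RIP-seq labels 0 genes of the 4 lists were called, against 8.37% of all genes called higher and 5.3% called lower. The interval lay above 1 for 2 of 9 associated factors and 1 of 5 measured regulators. It lay below 1 for 4 of 7 genes for ubiquitin and its activating enzymes and 2 of 11 shuttle and extraction factors. Of all genes 11.2% lay above and 8.93% below. ECPAS had 67 counts under the wild-type and 137 under the mutant label, a ratio of 1.67 (1.24 to 2.27), and UCHL5 had 31 and 62, a ratio of 1.63 (1.04 to 2.60). The protease DDI2, which activates NFE2L1, had 53 and 99, a ratio of 1.52 (1.08 to 2.17). Among the lower genes NSFL1C had 151 and 119, a ratio of 0.643 (0.501 to 0.823), and ubc had 288 and 257, a ratio of 0.728 (0.613 to 0.865). VCP had 351 and 322, a ratio of 0.749 (0.641 to 0.873), an interval that overlaps that of the summed components. Against RNA-seq, 3 of the 9 associated factors, SEM1, POMP and TXNL1, were called lower under both labels. Of all genes 14.1% were called lower under the wild-type label and 16.2% under the mutant label. SEM1 stood at 0.293 (0.185 to 0.442) and 0.331 (0.223 to 0.475), POMP at 0.444 and 0.433, and the thioredoxin-like 19S-bound protein TXNL1 at 0.428 and 0.473. Under the mutant label alone NFE2L2, rps27a and zfand5a were called lower. From the lists 0 genes were called higher under either label, against 9.01% (wild-type label) and 13.8% (mutant label) of all genes.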

How the data were processed

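The authors deposited a table of raw read counts per Ensembl gene for every library. The submitters' processing notes list HTSeq 0.6.1p1, Bowtie2 2.2.3, TopHat2 2.2.1, FastQC 0.11.5 and bcl2fastq and name the build GRCz10. Whether counting used strand, and which annotation release, is not given in the sources used here. Reads of overlapping or antisense genes therefore cannot be told apart. The 5 summary rows were kept out: alignments to several places were 11.2%, 8.42%, 91.8% and 89.5% of records (RNA-seq wild type and mutant, RIP-seq wild-type and mutant label), and 53.8%, 54.0%, 82.1% and 79.2% of unique records fell in no gene. Symbols matched 26121 of 31953 gene IDs.

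For each pair of libraries the whole table was scaled by TMM (edgeR 4.0.16, R 4.3.3), and genes reaching 1 CPM in either library were kept. This filter took CPM on the TMM-scaled library sizes, while CPM levels given as results use total gene counts. Ratios with exact conditional binomial intervals were computed in Python 3.11.15 (scipy 1.17.1). A log2 ratio adds 0.5 counts to each library. A fold against 0 uses a floor of 3 counts per library. The reads carry no molecular identifiers, so they are not independent molecules, and every interval or floor describes counting error alone. With 1 library per group there are no p-values. Alternatives were total-count, DESeq2 (1.42.0) and upper-quartile scaling, scaling by counts outside the leading genes (chosen after seeing the data), other filters, folds and prior counts.

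Named are called genes, in each comparison the 3 genes at either end when ordered by the bound of the interval closest to 1, the most and least covered per sub-complex, copies and inducible subunits; other names were chosen after their values were seen. The members and lists were chosen with earlier results of these data known. The values of 1 gene of the pathway lists are not reported here.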

Additional observations from a re-analysis of the deposited data

Results flagged for a closer look

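The PSME4 gene ENSDARG00000018742 stood on opposite sides of 1 in the 2 assays. Its mutant to wild-type ratio was 0.898 in RNA-seq and its ratio of the mutant to the wild-type label was 1.85 in RIP-seq, with counting intervals that leave out 1 in both. With total-count scaling the RNA-seq interval no longer left out 1. The difference itself was not tested, since each group has 1 library.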

How the results depend on the processing

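With 1 library per group no replicate could be left out. RIP-seq counts per gene are low, which widens their intervals. No paired analysis was possible because each group has 1 library. In RNA-seq the median log2 ratio of the proteasome genes was 0.00, and 0.064 with total-count scaling and 0.062 with scaling by counts outside the leading genes; under both the 19S sum turned to 1.02; a 1.5-fold size gave 1 lower gene. Between the RIP-seq labels the count of 2 lower genes became 1 with DESeq2 or total-count scaling, 5 with scaling outside the leading genes, 0 with a 4-fold size or with the whole interval beyond 2-fold, and 4 at 1.5-fold, where 1 was higher. The median of -0.32 became -0.21 (total counts) and -0.55 (outside the leading genes). For RIP-seq over RNA-seq under the wild-type label, 2 higher genes became 0 with total counts, with a CPM of at least 5 and with the whole interval beyond 2-fold, and 4 at 1.5-fold. The 5 lower became 47 with total counts, 3 at 4-fold, 3 with the whole interval and 10 at 1.5-fold. The median of 0.05 became -1.79 (total counts), 0.21 (upper quartile), 0.24 (outside the leading genes), -0.055 (CPM of at least 5) and 0.14 (prior count of 5), and the 19S sum of 1.12 became 0.315 with total counts. Under the mutant label 2 higher became 0 with total counts, and 1 outside the leading genes, at 4-fold and with the whole interval. The 8 lower became 47, 2, 3 and 16 with total counts, 4-fold, whole interval and 1.5-fold. The median of -0.34 became -2.14 (total counts), -0.20 (upper quartile), -0.44 (outside the leading genes) and -0.11 (prior count of 5), and the log2 ratio of PSME4 (ENSDARG00000018742) became -0.73 with total counts. Scaling shifts all genes together; for the filters, the cause was not tested beyond fewer genes entering.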
